A study of Mus musculus with 9 samples.

Results

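The miR-143/145 cluster consists of 2 neighbouring miRNA genes, Mir143 and Mir145a, and was described here in mouse liver during thioacetamide (TAA) fibrosis and after TAA withdrawal. The rows were taken by name, and the cluster was chosen with earlier results of these data known. Every row of the deposited count table whose name starts with mmu-miR-143- or mmu-miR-145a- was used. This gave 4 of 1140 rows, mmu-miR-143-3p, mmu-miR-143-5p, mmu-miR-145a-5p and mmu-miR-145a-3p. Small RNA libraries came from whole liver of 9 male C57BL/6 mice, which were 8 weeks old at the start. Control mice (n = 3) received intraperitoneal saline for 8 weeks, TAA mice (n = 3) received intraperitoneal TAA for 8 weeks, and recovery mice (n = 3) received the same TAA course and were then left untreated for 8 weeks. TAA is a hepatotoxin that injures hepatocytes around the central veins and leads to scarring. Livers of the recovery group were taken 8 weeks after those of both other groups, so recovery and elapsed time cannot be told apart.

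miRNAs are cut as a hairpin from a longer transcript, and each hairpin can leave a mature strand from its 5′ arm (5p) and from its 3′ arm (3p), which lower the output of mRNAs that pair with bases 2 to 8 of the strand, the seed. The miR-143/145 cluster is known for its high level in smooth muscle cells, where it is transcribed under serum response factor and myocardin and favours the contractile state. In the liver, smooth muscle of the vessel walls, pericyte-like stellate cells and the myofibroblasts of scars are known sources of these miRNAs.

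Mature sequences were looked up by name in a RefSeq table of build GRCm38.p6, which held 9 of the 15 names looked up and 0 of the 4 members. The sequences below are those of the 2 miRNAs against which the cluster was measured, and of the 2 miRNAs whose levels followed mmu-miR-145a-5p most closely over the samples. They are written 5′ to 3′ with the seed in capitals.
mmu-miR-199a-3p, chr1:162217883-162217904 (plus strand) and chr9:21496498-21496519 (minus strand): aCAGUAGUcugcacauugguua
mmu-miR-126a-3p, chr2:26591402-26591423 (plus strand): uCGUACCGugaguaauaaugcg
mmu-miR-100-5p, chr9:41531437-41531458 (plus strand): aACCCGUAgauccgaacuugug
mmu-miR-10a-3p, chr11:96317227-96317248 (plus strand): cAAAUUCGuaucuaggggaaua
mmu-miR-199a-3p, a strand known from stellate cells and other mesenchymal cells, has the same letters as mmu-miR-199b-3p, which had no row of its own, so its reads cannot be assigned to 1 gene. mmu-miR-126a-3p comes from an intron of Egfl7 and is known from endothelial cells. The 4 seeds are all different.

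Library depth was 9071847 to 12983378 counts per sample. Rows detected per sample were 631 to 663 in control, 806 to 828 in TAA and 675 to 722 in recovery. mmu-miR-122-5p, which defines hepatocytes, held 19.7% to 21.5% of a library in control, 10.6% to 12.0% in TAA and 17.0% to 24.1% in recovery. On library totals (the deposited TPM, the count over the total of the sample times 1000000) the median row was 1.12 log2 units higher in TAA against control than on the TMM scale, which sets the middle of the rows level between samples. The shift was -0.86 for recovery against TAA and 0.19 for recovery against control. TMM factors over the 9 samples were 0.73 to 0.77 in control, 1.51 to 1.68 in TAA and 0.75 to 0.90 in recovery. TAA replicate 3 stood apart in the miRNAs of striated muscle. It held 67184 counts of mmu-miR-1a-3p against 73 to 488 in the other 8 samples, 2281 of mmu-miR-133a-3p against 3 to 14, and 943 of mmu-miR-206-3p against 3 to 50. The summed level of the 7 striated muscle markers was 7714 TPM in this sample, and at most 40.3 TPM in a control and 33.2 TPM in a recovery sample. The fold changes of the members and their ratios to mmu-miR-199a-3p are therefore also given without this sample.

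In GENCODE release M21 of the mouse build GRCm38 (mm10, the build the reads were mapped to), the Mir145a hairpin lay at chr18:61647825-61647894 and the Mir143 hairpin at chr18:61649196-61649258, both on the minus strand and 1301 bases apart. Neither hairpin lay inside an annotated exon or intron of the 2 flanking long non-coding RNA genes. Carmn, the cardiac mesoderm enhancer-associated non-coding RNA, lay 366 bases from Mir143 on the same strand (chr18:61649625-61665537), and Bvht (Braveheart) lay 352 bases from Mir145a on the opposite strand (chr18:61639542-61647472).

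mmu-miR-143-3p made up nearly the whole output of the cluster. It held 98.7% to 99.2% of the cluster's reads in every sample, and ranked 7 in control, 6 in TAA and 8 in recovery among all rows by mean TPM. mmu-miR-145a-5p ranked 73, 79 and 71, mmu-miR-145a-3p ranked 98, 110 and 102, and mmu-miR-143-5p ranked 237, 246 and 243. The adapter ligation of library preparation takes up different miRNAs with different efficiency, so these ranks order reads and not molecules. The 4 rows together held 2.14% ± 0.275 (SD, n = 3) of the library in control, 4.59% ± 1.71 in TAA and 2.36% ± 0.728 in recovery.

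The guide strand of Mir143, mmu-miR-143-3p, measured 24150, 20738 and 18717 TPM in control replicates 1 to 3. In TAA replicates 1 to 3 it measured 47557, 27524 and 61391 TPM, and in recovery replicates 1 to 3 it measured 16161, 23165 and 30674 TPM. All TAA samples lay above all controls, the recovery samples lay on both sides of the controls, and the highest recovery sample lay above TAA replicate 2. On this scale 73.3% of all rows tested lay apart upward in TAA against control. Group means were 21202 ± 2746 TPM in control, 23333 ± 7258 in recovery and 45491 ± 17028 in TAA. The spread was widest in TAA, where TAA replicate 3, the sample with the striated muscle miRNAs, was highest and TAA replicate 2 lowest.

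Its partner strand, mmu-miR-143-5p, was counted 84, 46 and 38 times in the controls, which is 6.47, 4.48 and 3.82 TPM. It was counted 134, 114 and 158 times in TAA (11.8, 12.6 and 17.2 TPM) and 78, 73 and 83 times in recovery (6.39, 5.95 and 6.66 TPM). Every TAA sample lay above every sample of both other groups in TPM, and control and recovery overlapped. Of all rows tested, 73.3% lay apart upward in TAA against control and 63.6% downward in recovery against TAA. At these counts the exact 95% Poisson interval ran from 26.9 to 52.2 counts for control replicate 3 and from 134 to 185 for TAA replicate 3. Such intervals cover counting error only.

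The guide strand of Mir145a, mmu-miR-145a-5p, measured 159, 145 and 149 TPM in the controls, 309, 208 and 313 TPM in TAA and 138, 198 and 169 TPM in recovery. The TAA samples lay above all others, although TAA replicate 2 exceeded the highest recovery sample only narrowly. Group means were 151 ± 6.94, 277 ± 59.2 and 168 ± 30.3 TPM. mmu-miR-145a-3p measured 63.0, 62.4 and 72.5 TPM in the controls, 115, 97.7 and 162 TPM in TAA and 67.9, 78.7 and 84.4 TPM in recovery. Again the TAA samples lay above all others and control and recovery overlapped. For both arms this stands beside 73.3% of all rows apart upward in TAA against control and 63.6% downward in recovery against TAA.

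**Figure D1:**
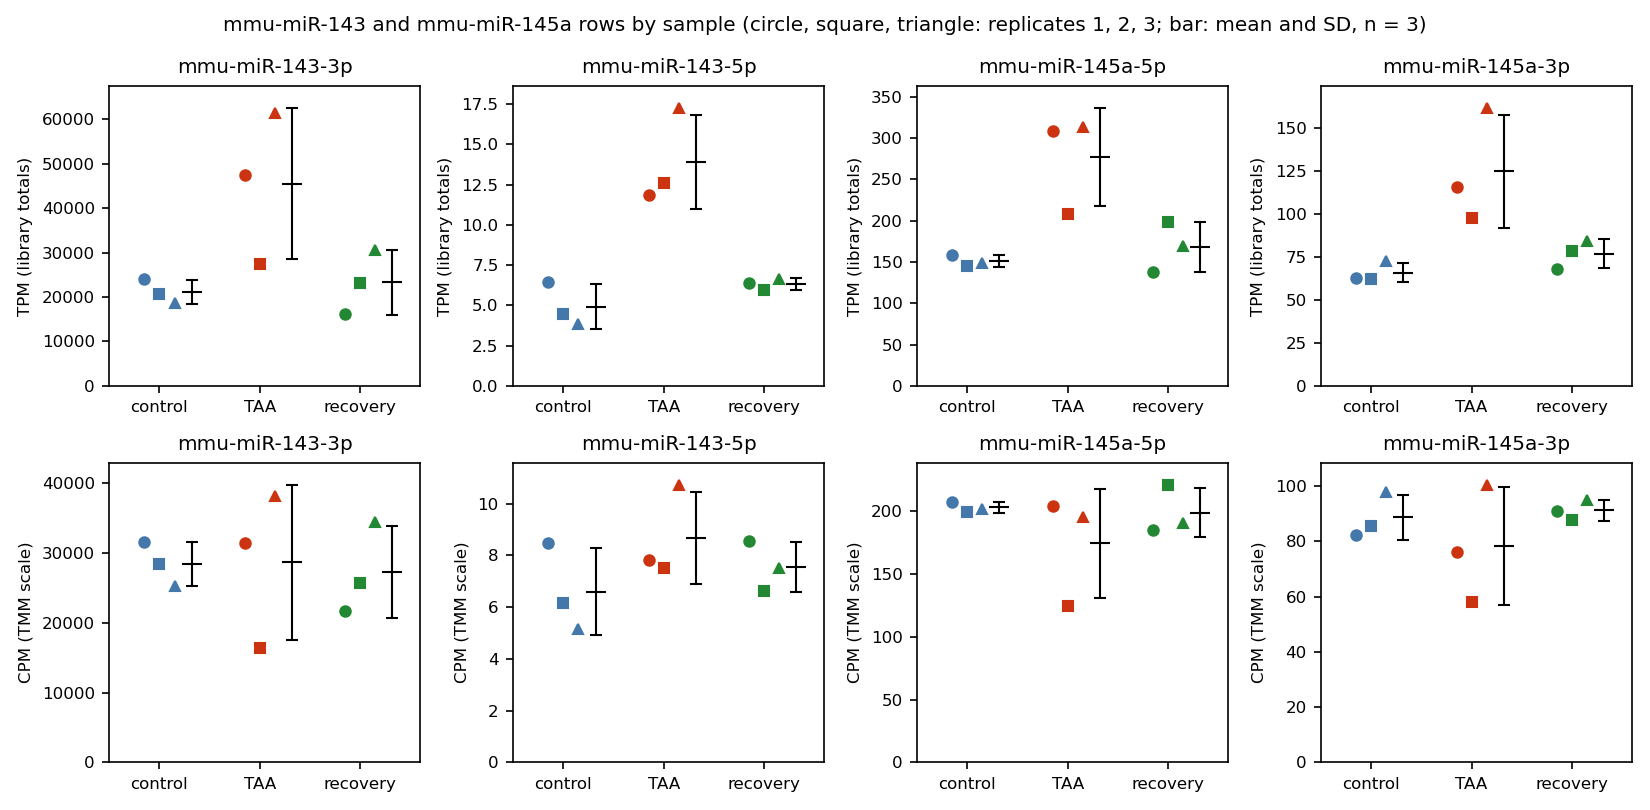
Level of the 4 miR-143/145a rows in each of the 9 samples, as TPM on library totals (upper row) and as CPM on the TMM scale (lower row), each axis linear and starting at 0. Points are mice and bars are the mean and SD (n = 3): the TAA samples stand above the controls in all 4 upper panels and overlap them in all 4 lower panels. Of all rows tested, 73.3% lay apart upward on library totals, and on the TMM scale 36.9% lay apart upward and 30.2% downward.

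On the TMM scale the same counts gave levels that overlapped between the groups for all 4 members. Of all rows tested, 36.9% lay apart upward and 30.2% downward for TAA against control, 25.7% and 27.3% for recovery against TAA, and 17.4% and 12.3% for recovery against control. mmu-miR-143-3p averaged 28459 ± 3122 CPM (counts over the TMM-scaled library size, times 1000000) in control, 28677 ± 11147 in TAA and 27324 ± 6571 in recovery. The 3 TAA samples were 31413, 16417 and 38202 CPM, so the lowest and the highest of the 9 samples were both TAA samples. mmu-miR-145a-5p averaged 203 ± 4.08 CPM in control, 174 ± 43.5 in TAA and 199 ± 19.6 in recovery. The controls lay within 200 to 207 CPM, TAA replicates 1 and 3 lay at 204 and 195 CPM, and TAA replicate 2 lay far below them at 124 CPM. mmu-miR-145a-3p averaged 88.7 ± 8.27, 78.4 ± 21.2 and 91.2 ± 3.68 CPM in control, TAA and recovery. mmu-miR-143-5p averaged 6.59 ± 1.69, 8.68 ± 1.78 and 7.56 ± 0.968 CPM.

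To ask whether the cluster changed during TAA fibrosis, TAA was compared with control by the edgeR quasi-likelihood test over 420 rows, with Benjamini-Hochberg adjustment (FDR). Calls required an FDR under 0.05 together with a change of 2-fold or more. On the TMM scale 0 of the 4 members were called, where 41.7% of all rows tested were called in either direction. DESeq2 also called 0, and 0 members had an unadjusted edgeR p under 0.05. The log2 fold change was -0.02 for mmu-miR-143-3p (95% interval -0.63 to 0.59, FDR 0.944) and 0.36 for mmu-miR-143-5p (-0.24 to 0.97, FDR 0.261). It was -0.25 for mmu-miR-145a-5p (-0.67 to 0.17, FDR 0.272) and -0.20 for mmu-miR-145a-3p (-0.65 to 0.24, FDR 0.39). Changes of up to 0.97 upward and -0.67 downward lie within these intervals. The 4 members lay near the middle of the rows: 44.0%, 56.9%, 36.4% and 39.0% of the rows tested had a lower log2 fold change, in the same order.

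The value of mmu-miR-143-3p turned on single TAA samples, being -0.25 without TAA replicate 3 (FDR 0.406) and 0.25 without TAA replicate 2 (FDR 0.163) on the TMM scale. mmu-miR-145a-5p was -0.30 (FDR 0.222) without TAA replicate 3 and -0.06 (FDR 0.703) without TAA replicate 2. Without TAA replicate 3 mmu-miR-145a-3p moved to -0.38 (FDR 0.0816) and mmu-miR-143-5p to 0.23 (FDR 0.524). The part of the striated muscle signal in the mmu-miR-143-3p level of TAA replicate 3 was not tested.

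On library totals all 4 members were higher in TAA and passed an FDR of 0.05, as did 77.1% of all rows. Their groups did not overlap, which held upward for 73.3% of rows. The log2 fold change was 1.10 for mmu-miR-143-3p (0.47 to 1.74, FDR 0.00722) and 1.48 for mmu-miR-143-5p (0.85 to 2.12, FDR 0.00195), and these 2 members also passed the fold change of 2, where 58.3% of rows were called. mmu-miR-145a-5p stood at 0.87 (0.45 to 1.30, FDR 0.00326) and mmu-miR-145a-3p at 0.92 (0.45 to 1.40, FDR 0.0043). The median of all rows on this scale was 1.23, above 3 of the 4 members. Without TAA replicate 3, an alternative chosen after the values were seen, the 4 members stood at 0.82, 1.30, 0.78 and 0.69 on library totals, and only mmu-miR-143-5p was called, where 55.5% of all rows were. In bulk liver, a change in the number of cells that make a miRNA and a change in the amount per cell cannot be told apart.

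For the withdrawal of TAA, recovery was compared with TAA over 440 rows. On the TMM scale 0 of the 4 members were called by edgeR and by DESeq2, 0 had an unadjusted edgeR p under 0.05, and 24.8% of all rows were called. The log2 fold change was -0.11 for mmu-miR-143-3p (-0.79 to 0.57, FDR 0.783) and -0.26 for mmu-miR-143-5p (-0.78 to 0.27, FDR 0.41). It was 0.14 for mmu-miR-145a-5p (-0.32 to 0.61, FDR 0.61) and 0.17 for mmu-miR-145a-3p (-0.27 to 0.61, FDR 0.506). Without TAA replicate 3 the value of mmu-miR-143-3p turned to 0.13 (FDR 0.755), and those of mmu-miR-143-5p, mmu-miR-145a-5p and mmu-miR-145a-3p were -0.077 (FDR 0.837), 0.22 (FDR 0.544) and 0.38 (FDR 0.193).

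On library totals all 4 members were lower in recovery than in TAA and passed an FDR of 0.05, as did 64.1% of all rows. mmu-miR-143-3p stood at -0.96 (FDR 0.0304), mmu-miR-143-5p at -1.13 (FDR 0.00439), mmu-miR-145a-5p at -0.72 (FDR 0.0216) and mmu-miR-145a-3p at -0.70 (FDR 0.0216), and the median of all rows was -0.98. Of these, only mmu-miR-143-5p was called, against 47% of rows. The groups did not overlap for 3 members, all but mmu-miR-143-3p, against 63.6% of rows downward. Without TAA replicate 3 the FDR on library totals was 0.0715, 0.0189, 0.0529 and 0.0807 for mmu-miR-143-3p, mmu-miR-143-5p, mmu-miR-145a-5p and mmu-miR-145a-3p, and 0 were called, where 43% of all rows were. TAA was used in this comparison and in the one against control, so the opposite signs of the members on library totals rest on the same 3 TAA samples.

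Recovery was set against control over 391 rows, to ask whether the cluster stood at the control level 8 weeks after TAA. edgeR called 0 of the 4 members on the TMM scale, against 11.3% of all rows, and 0 on library totals, against 12.5%. DESeq2 called 0, and 0 members had an unadjusted edgeR p under 0.05. On the TMM scale mmu-miR-143-3p differed by -0.06 (-0.45 to 0.34, FDR 0.932), mmu-miR-143-5p by 0.18 (-0.38 to 0.73, FDR 0.78), mmu-miR-145a-5p by -0.03 (-0.28 to 0.21, FDR 0.932) and mmu-miR-145a-3p by 0.04 (-0.24 to 0.32, FDR 0.932). Control and recovery samples overlapped for all 4 members on both scales, and on library totals 24.6% of rows lay apart upward and 3.32% downward. The intervals of mmu-miR-145a-5p and mmu-miR-145a-3p were the narrowest of the 4, and that of mmu-miR-143-5p, the lowest in counts, was the widest.

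**Figure D2:**
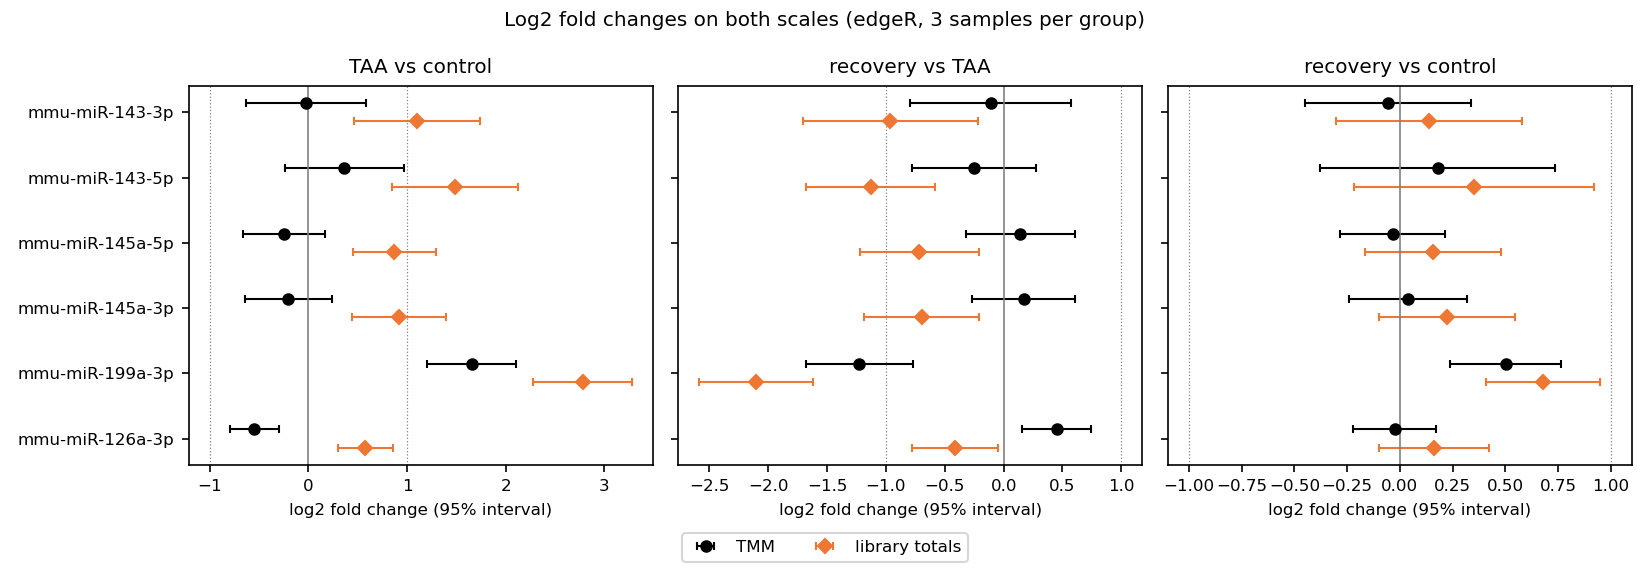
Log2 fold change with its 95% interval for the 4 members, mmu-miR-199a-3p and mmu-miR-126a-3p in the 3 comparisons, on the TMM scale (black circles) and on library totals (orange diamonds), with dotted lines at a 2-fold change and a different horizontal range in each panel. All 4 members cross 0 on the TMM scale in every panel and sit above 0 for TAA vs control and below 0 for recovery vs TAA on library totals.

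Ratios of counts within a library do not depend on the scale. In all, 8 such ratios were compared in the 3 comparisons by 24 exact two-sided permutation tests, in which 3 samples against 3 cannot give a p below 0.1, and 0.4 is the smallest adjusted value that was reached. Between the arms of Mir143, mmu-miR-143-3p had 3711, 4578 and 4837 reads per read of mmu-miR-143-5p in control, 4003, 2181 and 3550 in TAA and 2514, 3867 and 4578 in recovery. Between the arms of Mir145a, mmu-miR-145a-5p had 2.52, 2.33 and 2.06 reads per read of mmu-miR-145a-3p in control, 2.67, 2.13 and 1.94 in TAA and 2.03, 2.52 and 2.001 in recovery. The groups overlapped for both ratios. The 3p arm led in Mir143 and the 5p arm led in Mir145a in all 9 samples.

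The ratio of the 2 guide strands, mmu-miR-145a-5p to mmu-miR-143-3p, differed by -0.18 log2 units (SE 0.185) for TAA against control, 0.23 (SE 0.269) for recovery against TAA and 0.04 (SE 0.227) for recovery against control. The samples of the groups overlapped each time. Among the 12 comparisons within the cluster, the groups did not overlap in 1, mmu-miR-145a-3p to mmu-miR-143-5p. This ratio was 9.72, 7.74 and 9.35 in TAA and 10.6, 13.1 and 12.6 in recovery, a difference of 0.44 log2 units (SE 0.14, exact permutation p = 0.1, adjusted 0.4). The control values, 9.69, 13.8 and 18.7, overlapped with both. When groups do not differ, 3 samples against 3 lie apart in either direction with a probability of 0.1. The count of 1 in 12 is near that share.

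Relative to mmu-miR-199a-3p, a strand known from mesenchymal cells, both guide strands of the cluster were lower in TAA. mmu-miR-143-3p had 148, 142 and 105 reads per read of mmu-miR-199a-3p in control, 45.7, 31.6 and 43.0 in TAA and 63.6, 92.6 and 112 in recovery. The TAA samples lay below all others, and 1 recovery sample lay among the controls. mmu-miR-145a-5p had 0.976, 0.995 and 0.840 reads per read of mmu-miR-199a-3p in control, 0.297, 0.239 and 0.219 in TAA and 0.543, 0.793 and 0.616 in recovery. Here the 3 groups did not overlap, with control highest, recovery in between and TAA lowest. In TPM mmu-miR-199a-3p itself lay apart in reverse order: 146 to 178 in control, 250 to 274 in recovery, 872 to 1429 in TAA. On that scale 73.3% of all rows lay apart upward in TAA against control and 24.6% in recovery against control. For recovery against TAA 63.6% lay apart downward. The share of all rows whose ratio to a guide strand lay apart was not computed.

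For TAA against control the log2 ratio to mmu-miR-199a-3p differed by -1.72 (SE 0.227) for mmu-miR-143-3p and by -1.90 (SE 0.151) for mmu-miR-145a-5p. For recovery against TAA it differed by 1.14 (SE 0.291) and 1.36 (SE 0.207), and for recovery against control by -0.58 (SE 0.285) and -0.54 (SE 0.179). The exact permutation p was 0.2 for mmu-miR-143-3p in recovery against control and 0.1, the smallest possible, in the other 5. On the TMM scale 6 of the 13 tested rows known from mesenchymal cells and smooth muscle were called higher in TAA against control. The other 7 were not called, and 25% of all rows were called higher. mmu-miR-199a-3p was thus not a measure of all of them, and had been picked as the comparison row with its own rise in TAA known. Its log2 fold change on the TMM scale was 1.66 (FDR 0.00047) for TAA against control, -1.23 (FDR 0.0024) for recovery against TAA and 0.50 (FDR 0.0147) for recovery against control.

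Because 3 samples against 3 limit a single exact test, each row was also fitted with limma as its log2 ratio to a member, with FDR over all rows. The ratio of mmu-miR-199a-3p to mmu-miR-143-3p rose by 1.72 in TAA against control (0.70 to 2.74, FDR 0.0072, with 31.3% of rows passing). It differed by -1.14 in recovery against TAA (-2.33 to 0.06, FDR 0.234) and by 0.58 in recovery against control (-0.17 to 1.34, FDR 0.583), where 13.2% and 11.8% of rows passed. The ratio of mmu-miR-199a-3p to mmu-miR-145a-5p rose by 1.90 in TAA against control (1.31 to 2.50, FDR 0.00222, with 43.7% of rows passing). It fell by 1.36 in recovery against TAA (FDR 0.0172, with 22.1% of rows passing) and differed by 0.54 in recovery against control (0.06 to 1.02, FDR 0.181, with 11.5% of rows passing). Without TAA replicate 3 the FDR for TAA against control was 0.0182 against mmu-miR-143-3p, at a change of 1.78, and 0.0121 against mmu-miR-145a-5p, at 1.81. Since mmu-miR-199a-3p was picked with its own rise in TAA known, these FDRs are no independent evidence of a difference. The noise of the member enters every row of such a fit. The call against mmu-miR-143-3p was lost without control replicate 1, 2 or 3 (FDR 0.0829, 0.097 and 0.0572), and the recovery call against mmu-miR-145a-5p was lost without TAA replicate 3 (FDR 0.0607), recovery replicate 2 (FDR 0.0794) or recovery replicate 3 (FDR 0.0575), with the same direction in each case.

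Against the endothelial strand mmu-miR-126a-3p neither guide strand differed beyond the spread of the samples in the limma fits. mmu-miR-143-3p had 3.98, 3.44 and 3.12 reads per read of mmu-miR-126a-3p in control, 5.93, 3.22 and 5.85 in TAA and 2.80, 3.13 and 4.31 in recovery. TAA replicates 1 and 3 were the highest of the 9 and TAA replicate 2 lay among the controls. The log2 ratio differed by 0.46 (SE 0.308, exact permutation p = 0.3) between TAA and control and by -0.52 (SE 0.345, exact permutation p = 0.2) between recovery and TAA. In the limma fit the ratio of mmu-miR-126a-3p to mmu-miR-143-3p differed by -0.46 in TAA against control, with an interval of -1.49 to 0.56 (FDR 0.528), and the FDR was 0.679 for recovery against TAA and 0.995 for recovery against control. For mmu-miR-145a-5p the log2 ratio to mmu-miR-126a-3p differed by 0.28, -0.29 and -0.01 in TAA against control, recovery against TAA and recovery against control. All groups overlapped, and the limma FDR of the same ratio turned round was 0.424, 0.515 and 0.985. mmu-miR-126a-3p itself had a log2 fold change of -0.55 on the TMM scale (FDR 0.00371) and 0.58 on library totals (FDR 0.0031) in TAA against control, so its direction flips with the scale.

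**Figure D3:**
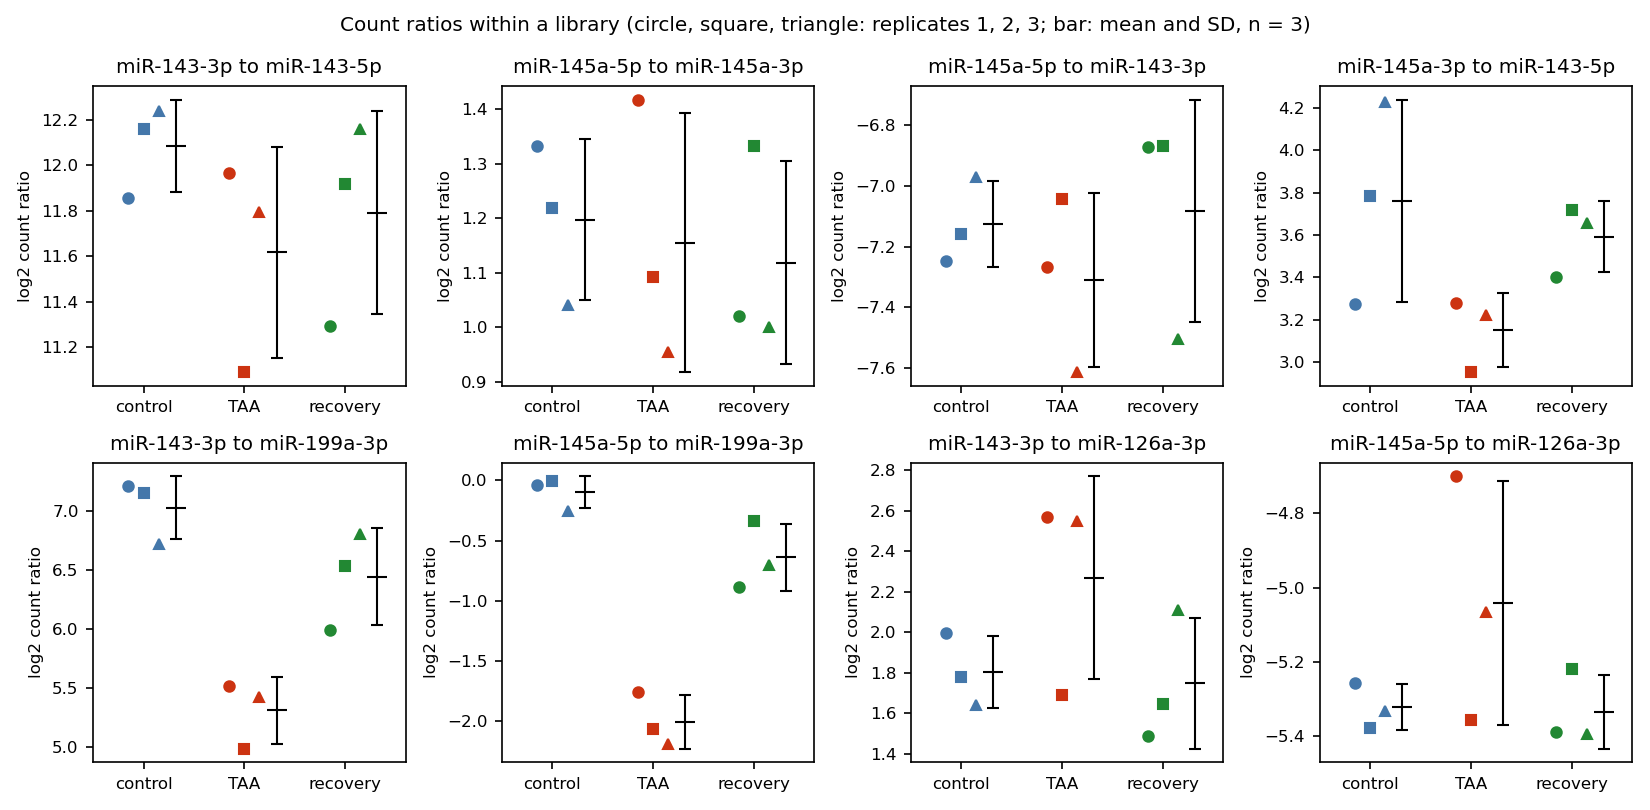
Log2 of the count ratio of 2 miRNAs within each library, for the 4 ratios inside the cluster (upper row) and the ratios of the 2 guide strands to mmu-miR-199a-3p and mmu-miR-126a-3p (lower row), with points for mice, bars for mean and SD (n = 3) and a different vertical range in each panel. The TAA samples lie below all others in both ratios to mmu-miR-199a-3p, and overlap with control in the other 6 panels. mmu-miR-199a-3p was picked with its own rise in TAA known.

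Among other miRNAs known from mesenchymal cells and smooth muscle, several rose in TAA and fell in recovery. The list held 14 rows, of which 13 were tested, and on the TMM scale 6 were called higher and 0 lower in TAA against control (25% of all rows were called higher), with a median log2 fold change of 0.73 beside 0.11 for all rows. The 6 were rows of the miR-199, miR-214 and miR-218 families. They hold both arms of miR-199a and of miR-214, and include mmu-miR-199a-3p, the comparison row of the ratios. They are therefore not 6 independent rows. Of the 7 rows not called, mmu-miR-221-3p (0.43, FDR 0.0384) and mmu-miR-222-3p (0.73, FDR 0.0464) were above 0. Below 0 were mmu-miR-10a-5p (-0.49, FDR 0.0236), mmu-miR-99a-5p, mmu-miR-10b-5p, mmu-miR-100-5p and mmu-miR-125b-5p. The list summed to 15678 to 16722 CPM in control, 10249 to 14519 in TAA and 17072 to 19036 in recovery. In TPM it summed to 11996 to 12361, 17184 to 23026 and 14209 to 15627, so TAA was lowest in CPM and highest in TPM. Most of the sum came from mmu-miR-10a-5p, mmu-miR-99a-5p and mmu-miR-100-5p. They averaged 7892, 5551 and 1671 CPM in control, where the list averaged 16332 CPM. The sum therefore says little about the rows called higher. mmu-miR-218-5p was highest at 4.40 (FDR 4.61e-05) and mmu-miR-99a-5p lowest at -0.72 (FDR 0.00411). On library totals 9 were called higher and 0 lower, beside 57.4% of all rows called higher, and mmu-miR-99a-5p turned to 0.40 (FDR 0.0494). mmu-miR-218-5p had 147, 97 and 94 counts in control, 7009, 3482 and 3444 in TAA and 75, 166 and 194 in recovery, so its TAA samples stood far above all others. In recovery against TAA on the TMM scale 0 were called higher and 6 lower (14.5% of all rows were called lower, and the median was -0.74 beside -0.12). mmu-miR-10b-5p was highest there at 0.93 (FDR 0.235) and mmu-miR-218-5p lowest at -4.46 (FDR 0.000283). In recovery against control on the TMM scale 0 of 13 were called, where 11.3% of all rows were. mmu-miR-199b-5p was highest there at 0.81 (FDR 0.0716) and mmu-miR-10a-5p lowest at 0.01 (FDR 0.965). The list was drawn up with the behaviour of several of its rows in these samples known, so its counts are no independent evidence of a direction. The row not tested was mmu-miR-145b, a separate gene named like a member, with 0 counts in 7 samples, 1 in TAA replicate 2 and 3 in recovery replicate 3.

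Markers of other cell types were summed in the same groups, and apart from the biliary list their calls or their direction depended on the scale. On the TMM scale 25% of all rows were called higher and 16.7% lower in TAA against control, and on library totals 57.4% were called higher and 0.952% lower. The 5 biliary epithelial markers were all called higher on both scales, and summed to 591 to 781 CPM in control, 3245 to 5236 in TAA and 1273 to 1398 in recovery. The 4 hepatocyte markers were all called lower on the TMM scale and 0 were called on library totals. Their sum was 527502 to 542482, 150838 to 168457 and 421698 to 522037 CPM in control, TAA and recovery, and 389932 to 408780, 242401 to 257553 and 378683 to 389650 TPM, so it was lowest in TAA on both scales. The 2 endothelial markers were called on neither scale, and control and TAA lay apart in opposite directions. Their sum was 8776 to 9081 CPM in control and 5552 to 6972 in TAA, but 6576 to 6715 TPM in control and 8755 to 11204 in TAA.

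Of the 5 leukocyte markers 1 was called higher on the TMM scale and 5 on library totals. They summed to 203 to 229 CPM in control, 279 to 334 in TAA and 160 to 231 in recovery, and to 153 to 169, 456 to 536 and 120 to 205 TPM. Of the 4 red cell markers 1 was called lower on the TMM scale and 0 on library totals, with sums of 826 to 1391, 207 to 488 and 351 to 636 CPM and of 601 to 1029, 347 to 785 and 262 to 572 TPM. Of the 7 striated muscle markers 3 were tested, of which 1 was called higher on the TMM scale and 3 on library totals, and mmu-miR-133a-5p and mmu-miR-133b-3p were at 0 in every sample except TAA replicate 3. The part of these markers in the levels of the cluster was not tested.

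Rows that followed the cluster over the 9 samples were ranked by the SD of their log2 count ratio to a member, among 285 rows with a mean of at least 50 counts, where a smaller SD means a more constant ratio. For mmu-miR-145a-5p the smallest were mmu-miR-100-5p (SD 0.0997), mmu-miR-10a-3p (0.127), mmu-miR-140-5p (0.162), mmu-let-7c-5p (0.174) and mmu-miR-3068-5p (0.183), beside a median of 0.517 over the rows. Its own partner mmu-miR-145a-3p had 0.171 and mmu-miR-143-3p had 0.265. mmu-miR-126a-3p came at rank 12 (0.226) and mmu-miR-199a-3p at rank 220 (0.871). mmu-miR-100-5p measured 1312, 1220 and 1199 TPM in control, 2465, 1608 and 2543 in TAA and 1339, 1529 and 1407 in recovery, with TAA replicate 2 lowest in its group as for mmu-miR-145a-5p.

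For mmu-miR-143-3p the smallest SDs were those of mmu-miR-187-3p (0.279), mmu-miR-100-5p (0.296), mmu-miR-24-2-5p (0.311), mmu-miR-3074-2-3p (0.313) and mmu-miR-10a-3p (0.323), beside a median of 0.602. The members stood at 0.265 (mmu-miR-145a-5p), 0.279 (mmu-miR-145a-3p) and 0.395 (mmu-miR-143-5p). Only mmu-miR-145a-5p lay below every row outside the cluster, and its margin to mmu-miR-187-3p was small. From the side of mmu-miR-145a-5p this did not hold. At least the first 12 outside rows (mmu-miR-126a-3p at rank 12, 0.226) had a more constant ratio than mmu-miR-143-3p (0.265). mmu-miR-24-2-5p and mmu-miR-3074-2-3p lie on opposite strands of 1 locus and differed by only 2 to 16 counts in a sample, so they cannot be counted as 2 rows. These SDs are descriptions over 9 samples that share their groups, and no test was made.

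**Figure D4:**
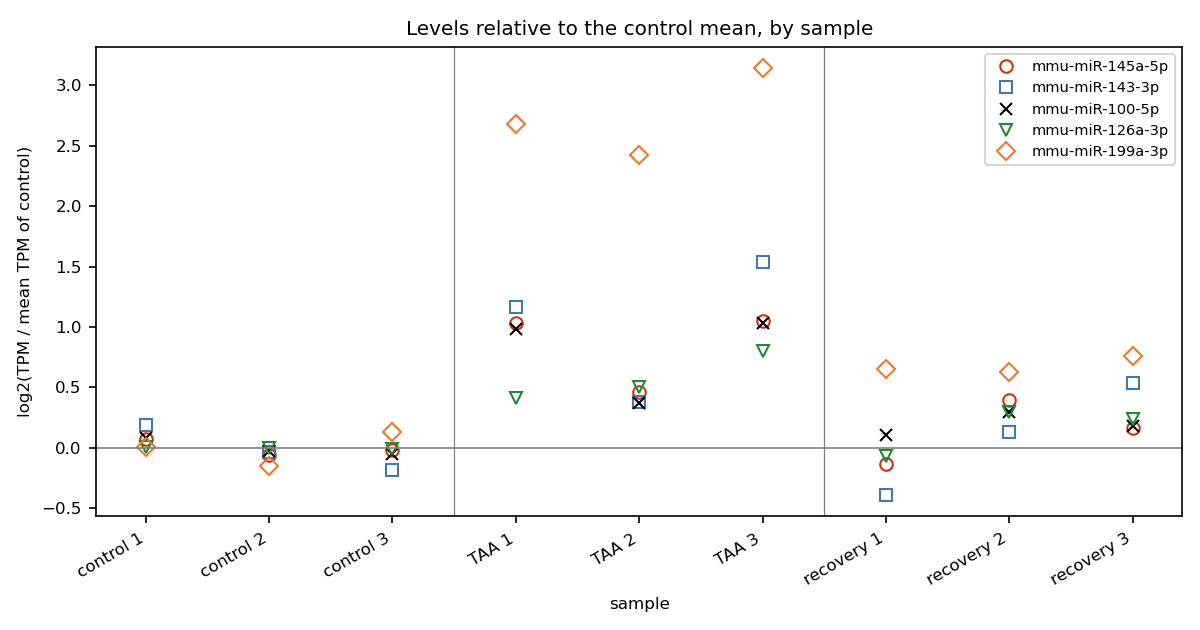
Log2 of the TPM of each sample over the mean TPM of the controls for mmu-miR-145a-5p, mmu-miR-143-3p, mmu-miR-100-5p, mmu-miR-126a-3p and mmu-miR-199a-3p, with samples on the horizontal axis and lines between the groups. mmu-miR-100-5p lies close to mmu-miR-145a-5p in most samples, with the widest gap in recovery replicate 1 (0.11 against -0.13). mmu-miR-199a-3p sits far above both in the 3 TAA samples.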

How the data were processed

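Mature miRNAs were measured by small RNA sequencing in 9 mouse livers, 3 per group by their labels, each a different mouse. The authors extracted total RNA with TRIzol, made ligation-based NEBNext libraries, mapped clean reads to mm10 and aligned them to miRBase with Bowtie (version 1.3.0). How reads that match several miRNAs were handled was not stated. The authors deposited unnormalized counts per mature miRNA, and the deposited TPM equals the count over the total of the sample times 1000000, with no term for length.

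Counts were tested with edgeR (version 4.0.16, R 4.3.3) per pair of groups, with filterByExpr (minimum count 10), scaling by TMM and the quasi-likelihood test. The SE of a log2 fold change came from its F statistic, and CPM used TMM factors over the 9 samples. Count ratios used a pseudocount of 0.5 and exact two-sided permutation tests, and ratios to a member over all rows used limma (version 3.58.1). Log2 fold changes of limma on log2(TPM + 1) understate low rows. DESeq2 (version 1.42.0), other scalings, filters and samples were alternatives. Scripts were tested on simulated data.

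Named rows were the 4 members, mmu-miR-145b, both comparison rows, the list rows with the highest and lowest change, and the 5 rows most like each guide strand. mmu-miR-1a-3p, mmu-miR-133a-3p, mmu-miR-206-3p, mmu-miR-133a-5p, mmu-miR-133b-3p, mmu-miR-221-3p, mmu-miR-222-3p and mmu-miR-125b-5p were named after their values were seen. Rows that share a seed with a member were not analysed here. The members and lists were chosen with earlier results of these data known.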

Additional observations from a re-analysis of the deposited data

How the results depend on the processing

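The count of members called on the TMM scale was 0 in each comparison with the size factors of DESeq2, upper-quartile factors, the DESeq2 test, no filter on low counts, a mean of at least 10 CPM (which removes mmu-miR-143-5p), a fit of all 9 samples, the FDR alone, mmu-miR-145b added to mmu-miR-145a-5p, and without any 1 replicate. It was 2 in TAA against control and 1 in recovery against TAA on library totals and with limma on log2(TPM + 1) or log2(TPM + 0.1), and 1 and 1 on library totals without mmu-miR-122-5p, mmu-miR-122b-3p and mmu-miR-21a-5p. On library totals with TAA replicate 3 left out, chosen after seeing the data, it was 1 in TAA against control. In TAA against control 58.3%, 50.5%, 57.4%, 55% and 55.5% of all rows were called under these 5 settings (library totals, both pseudocounts, the 3 rows left out, TAA replicate 3 left out), and in recovery against TAA 47%, 35.9%, 42.7%, 43.1% and 43%. The median log2 fold change of all rows ran from 1.07 to 1.24 in TAA against control and from -0.98 to -0.80 in recovery against TAA under the same settings, and the cause of the shift was not tested.

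In TAA against control mmu-miR-143-3p, mmu-miR-145a-5p and mmu-miR-145a-3p had log2 fold changes of 1.10, 0.87 and 0.92 on library totals, 0.96, 0.74 and 0.79 without the 3 abundant rows, 1.03, 0.85 and 0.88 with limma on log2(TPM + 1), 1.03, 0.85 and 0.89 with log2(TPM + 0.1), and 0.82, 0.78 and 0.69 with TAA replicate 3 left out. In recovery against TAA mmu-miR-145a-5p and mmu-miR-145a-3p had -0.72 and -0.70, -0.62 and -0.59, -0.70 and -0.66, -0.71 and -0.67, and -0.62 and -0.47 in the same order. In recovery against control mmu-miR-143-3p and mmu-miR-145a-5p had 0.14 and 0.16, 0.093 and 0.12, 0.10 and 0.14, and 0.10 and 0.14 in the first 4 of these settings.

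Other sign changes were of values near 0, and their cause was not tested. With a mean of at least 10 CPM the value was 0.21 for mmu-miR-143-3p and 0.020 for mmu-miR-145a-3p in TAA against control, -0.048 for mmu-miR-145a-5p and -0.021 for mmu-miR-145a-3p in recovery against TAA, and 0.015 for mmu-miR-143-3p and 0.038 for mmu-miR-145a-5p in recovery against control. With a fit of all 9 samples it was 0.076 for mmu-miR-143-3p in TAA against control and 0.0044 for mmu-miR-145a-5p in recovery against control. Upper-quartile factors gave 0.065 for mmu-miR-143-3p in recovery against TAA and -0.10 for mmu-miR-145a-3p in recovery against control.

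Without 1 replicate in turn, log2 fold changes of mmu-miR-143-3p ran from -0.25 to 0.25 in TAA against control, -0.33 to 0.13 in recovery against TAA and -0.29 to 0.12 in recovery against control, and in the last comparison from -0.10 to 0.054 for mmu-miR-145a-5p and -0.023 to 0.095 for mmu-miR-145a-3p. The log2 ratio of mmu-miR-145a-5p to mmu-miR-145a-3p ran from -0.17 to 0.058 in TAA against control and -0.14 to 0.094 in recovery against TAA, and that of mmu-miR-143-3p to mmu-miR-143-5p from -0.089 to 0.42 in recovery against TAA. In recovery against control the ratio of mmu-miR-145a-5p to mmu-miR-143-3p ran from -0.063 to 0.26, mmu-miR-145a-3p to mmu-miR-143-5p from -0.41 to 0.062, mmu-miR-143-3p to mmu-miR-126a-3p from -0.24 to 0.073 and mmu-miR-145a-5p to mmu-miR-126a-3p from -0.070 to 0.020. The ratios to mmu-miR-199a-3p kept their sign in every one of these settings.

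The replicate numbers in the titles mark different mice, and no pairing of them was taken. Deviations of same-numbered samples correlated at 0.04, 0.14 and -0.20 in TAA against control, 0.17, -0.25 and 0.23 in recovery against TAA, and 0.11, 0.02 and -0.12 in recovery against control. With 3 samples per group these values cannot exclude that same-numbered samples were processed together. With the replicate block 0 members were called in each comparison, and the limma ratio of mmu-miR-199a-3p to mmu-miR-143-3p in TAA against control had an FDR of 0.0133. mmu-miR-143-5p, at 38 to 158 counts, also carries counting error.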
